A study of Drosophila melanogaster with 12 samples.

Results

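S9.6 peaks of dH1-depleted cells were compared with those of untreated cells, in libraries that received no RNH. The 22717 peaks of 4 lists were used, out of 25902 in the 8 S9.6 lists of the series, and they were chosen by library alone, with no value of a peak involved. The dH1-depleted lists had 9368 (replicate 1) and 5526 peaks (replicate 2), and the untreated lists had 4016 (replicate 1) and 3807 (replicate 2). All libraries came from S2 cells, a *Drosophila* line of embryonic origin. For dH1 depletion, cells received 100 μg of dsRNA against dH1 on days 1, 4 and 7 and were collected after 8 days. Control cells were untreated, so no library received an unrelated dsRNA. Each condition had 2 biological replicates. DNA fragments of 500 to 1000 bp, made by sonication, were precipitated with 4 μg of S9.6 antibodies, and the peaks of each library were called against the input of its own replicate. Neither the identity of the cells nor the depletion of dH1 can be checked in lists of peaks. Depth is unknown for every library, since read counts are missing in the lists, and the number of peaks also depends on it. Each peak carries the MACS score of the authors, which is 10 times the negative log10 of its *p*-value. Since this score grows with depth, it was used only to rank peaks within a list, as a percentile where 100 is the highest peak.

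Linker histone H1 binds the nucleosome at the entry and exit of DNA and compacts the nucleofilament. In *Drosophila* it is encoded by a multigene locus that also carries the core histone genes, and it is needed to keep transposons and other repeats of heterochromatin silent. R-loops are DNA:RNA hybrids with a displaced DNA strand that form during transcription, and S9.6 antibodies recognize the hybrid. In the dm3 build, pericentromeric heterochromatin that was assembled lies on 2LHet, 2RHet, 3LHet, 3RHet, XHet and YHet (the Het sequences), while U and Uextra collect unplaced scaffolds, most of them repetitive. Reads had been kept at all their alignment sites, so peaks on the copies of a repeat rest in part on the same reads and are not independent.

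The dH1-depleted lists did not hold peaks of the same kind. In replicate 1 the peaks had a median width of 228 bp (5th to 95th percentile 135 to 672 bp), and 90.4% were narrower than 500 bp. The peaks of dH1-depleted replicate 2 had a median width of 1233 bp (822 to 3150 bp), against 1186.5 bp (755 to 3133 bp) and 1162 bp (746 to 3126 bp) in replicates 1 and 2 of untreated cells. In these 3 lists, 0.27% in dH1-depleted replicate 2 and 0.92% and 0.95% in the untreated replicates were narrower than 500 bp. The distributions of these 3 lists lay over each other, while that of dH1-depleted replicate 1 peaked below the size of the sonicated fragments. The difference in log2 median width between the conditions was -1.15, while replicates differed with an SD of 1.22, so the libraries overlapped (2-sided exact permutation test, *p* = 1.00). Without dH1-depleted replicate 1 it was 0.071. The scores of replicate 1 were also coarser, with 57.1% distinct values in front of 84.1% in dH1-depleted replicate 2 and 86.6% and 85.6% in the untreated replicates. What gave narrow peaks in this library is not known from the files and was not tested. The list of narrow peaks is therefore given apart wherever width enters.

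**Figure D1:**
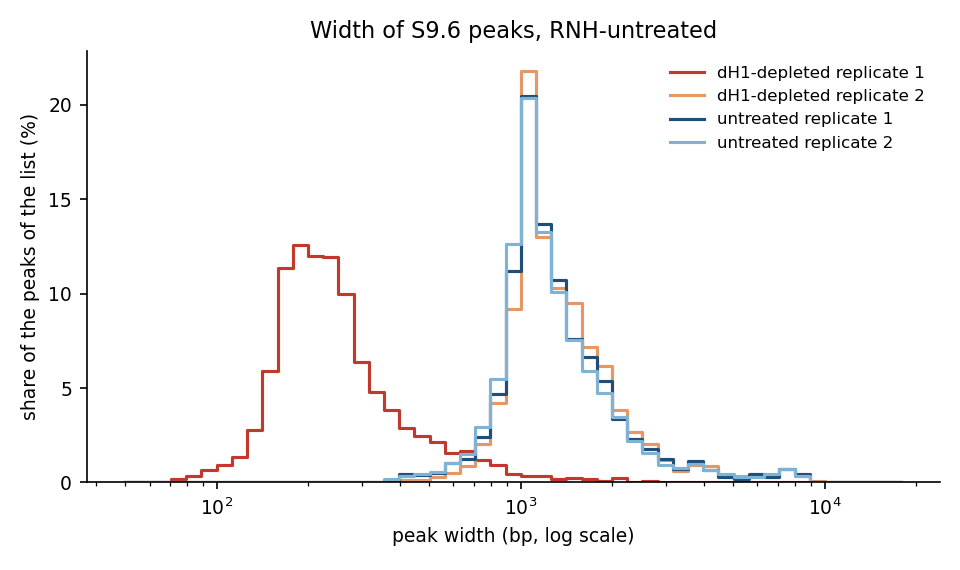
Share of the peaks of each list (%, vertical axis) by peak width (bp, log scale, horizontal axis) for the 4 RNH-untreated lists, drawn as steps. Most peaks of dH1-depleted replicate 1 are narrower than 500 bp, while dH1-depleted replicate 2 and both untreated replicates peak near 1000 bp.

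Where narrow peaks overlapped wide ones, they nevertheless lay mostly inside them. Of the 5526 peaks of dH1-depleted replicate 2, 2417 held at least 1 narrow peak of replicate 1. Of these, 1875 held 1 narrow peak, 371 held 2, 67 held 3 and 104 held 4 or more. Of the narrow peaks that overlapped a peak of replicate 2, 96.9% lay wholly inside it, and the narrow peaks covered 25.8% of its length (median). The narrow peak of highest score lay 147 bp from the centre of the wide peak (median), and in 81.5% of the wide peaks it fell in the central 50% of their length (95% Wilson interval 79.9–83.0%, counting error only). The position was central most often on Uextra (91.2%) and less so on the chromosome arms (74.6%). Against untreated peaks the values were similar, with 84.0% and 84.5% in the central 50% of the peaks of replicates 1 and 2. The share in the central 50% was not compared with a placement at random. Wide peaks that held several narrow ones were wider, with a median of 1983 bp in front of 1213 bp for those that held 1. Longer peaks have more room for narrow ones, so nothing further is drawn from this order. The peak of replicate 2 with most narrow peaks lay on 3RHet from 168058 to 178179 (dm3), with 8 narrow peaks that covered 53.5% of its 10122 bp. The same position was a peak of 9439 bp and of 9927 bp in replicates 1 and 2 of untreated cells. Other narrow peaks had no wide counterpart at all, since 5066 of the 9368 (54.1%) overlapped no peak of the other 3 lists. These ranked lower in their list, with a median percentile of 38.2 in front of 66.3 for the narrow peaks that did overlap, and were narrower than these.

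Replicate-shared regions were then made by merging overlapping peaks of both replicates of a condition, with 1 bp of overlap or more, and keeping the regions called in both. There were 2417 such regions in dH1-depleted cells and 3002 in untreated cells. The dH1-depleted regions lay on the chromosome arms (1157), the Het sequences (128), U (160) and Uextra (972), and the untreated regions lay on the arms (1811), the Het sequences (91), U (116) and Uextra (984). Numbers of shared regions on the arms were thus lower in dH1-depleted cells, those on Uextra nearly equal, and those on the Het sequences and U higher. Numbers of peaks were not lower on the arms, with 5478 and 3295 in dH1-depleted cells against 2624 and 2419 in untreated cells. On Uextra there were 2837 and 1470 peaks in dH1-depleted cells against 1102 and 1120 in untreated cells. Heterochromatic sequences, that is the Het sequences, U and Uextra, held 52.1% of the regions in dH1-depleted cells (95% Wilson interval 50.1–54.1%) and 39.7% in untreated cells (37.9–41.4%). Of all peaks, shared or not, 41.5% and 40.4% were heterochromatic in dH1-depleted replicates 1 and 2, against 34.7% and 36.5% in untreated cells, a smaller gap. Regions are not replicates, so the shares of regions were not tested. They moved with the peaks used. When each list was cut to its 3807 highest ranked peaks, there were 1268 regions in dH1-depleted cells, of which 64.4% were heterochromatic, and 2918 in untreated cells, of which 39.9% were. Without Uextra, 19.9% of 1445 regions were heterochromatic in dH1-depleted cells and 10.3% of 2018 in untreated cells. Each dH1-depleted region held 1 peak of replicate 2, and 542 (22.4%) held several narrow peaks of replicate 1. In untreated cells 23 regions (0.77%) held several peaks of replicate 1.

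Peaks were called in the other replicate less often in dH1-depleted cells, in each class of sequences. On the chromosome arms 31.1% and 35.1% of the peaks of dH1-depleted replicates 1 and 2 were shared, against 69.7% and 75.9% in untreated cells. On the Het sequences the shares were 38.1% and 27.8% in dH1-depleted cells and 64.5% and 78.0% in untreated cells. On U they were 48.5% and 53.3% in dH1-depleted cells and 77.9% and 77.3% in untreated cells. Uextra had the highest share in 3 of the 4 lists, with 41.8% and 66.1% in dH1-depleted cells and 89.8% and 88.2% in untreated cells. In each class both dH1-depleted values were below both untreated values. Both values of a condition count the overlap of the same pair of lists, from either side, so each condition gives 1 independent value and no test was possible. Over all peaks the log2 odds differed by -2.40 between the conditions. The difference stayed between -2.26 and -2.46 when the narrow peaks were widened to the median width of the others, with equal numbers of peaks, without Uextra, with peaks of score 100 and above, or with an overlap of 50% of the shorter interval.

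The lower sharing was not limited to weak peaks. In the lowest score decile, 18.8% and 25.9% of the peaks of dH1-depleted replicates 1 and 2 were called in the other replicate, against 38.9% and 51.6% in untreated cells. In the highest decile the shares were 63.6% and 82.5% in dH1-depleted cells, and 100.0% and 99.5% in untreated cells. In each decile both dH1-depleted lists lay below both untreated lists. Peaks of the highest decile were heterochromatic in 84.7% (replicate 1) and 57.3% (replicate 2) of cases in dH1-depleted cells, against 60.2% and 67.2% in untreated cells. Within shared regions, ranks in the replicates were related with a Spearman's rho of 0.33 over 2417 regions in dH1-depleted cells and of 0.78 over 3002 regions in untreated cells. Regions on copies of a repeat share reads, so these values are descriptions only.

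**Figure D2:**
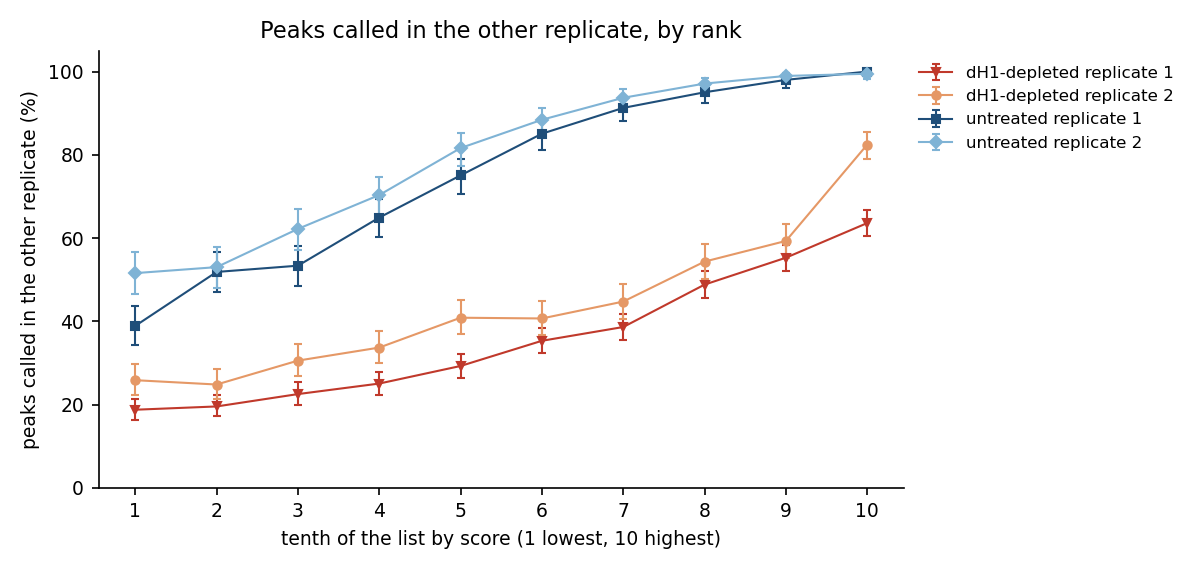
Share of peaks called in the other replicate of the condition (%, vertical axis) by score decile of the list (horizontal axis, 10 highest) for the 4 RNH-untreated lists, where bars are 95% Wilson intervals. Both dH1-depleted lists lie below both untreated lists at each decile, with 63.6% and 82.5% against 100.0% and 99.5% in the highest.

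Lists of the same length were next compared by taking the N peaks of highest score of each and counting how many were overlapped by the N highest of another list, averaged over both directions. With 1000 peaks, the dH1-depleted replicates had 31.1% in common and the untreated replicates 78.0%. Between conditions, dH1-depleted replicate 1 had 45.2% and 47.5% in common with the untreated replicates, and dH1-depleted replicate 2 had 58.4% and 58.8%. Each dH1-depleted list was thus closer to both untreated lists than to its own replicate. This order held at each of the N taken, 100, 200, 500, 1000, 2000 and 3000. With 100 peaks, dH1-depleted replicates had 33.5% in common, while replicate 1 had 71.5% and 74.5% in common with the untreated lists, and replicate 2 had 43.5% and 45.5%. With 3000 peaks the dH1-depleted pair agreed in 38.0% and the untreated pair in 77.2%. Widening the narrow peaks changed the agreement of the dH1-depleted pair at 1000 peaks to 32.1%. The pairs share lists, so no test was made.

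**Figure D3:**
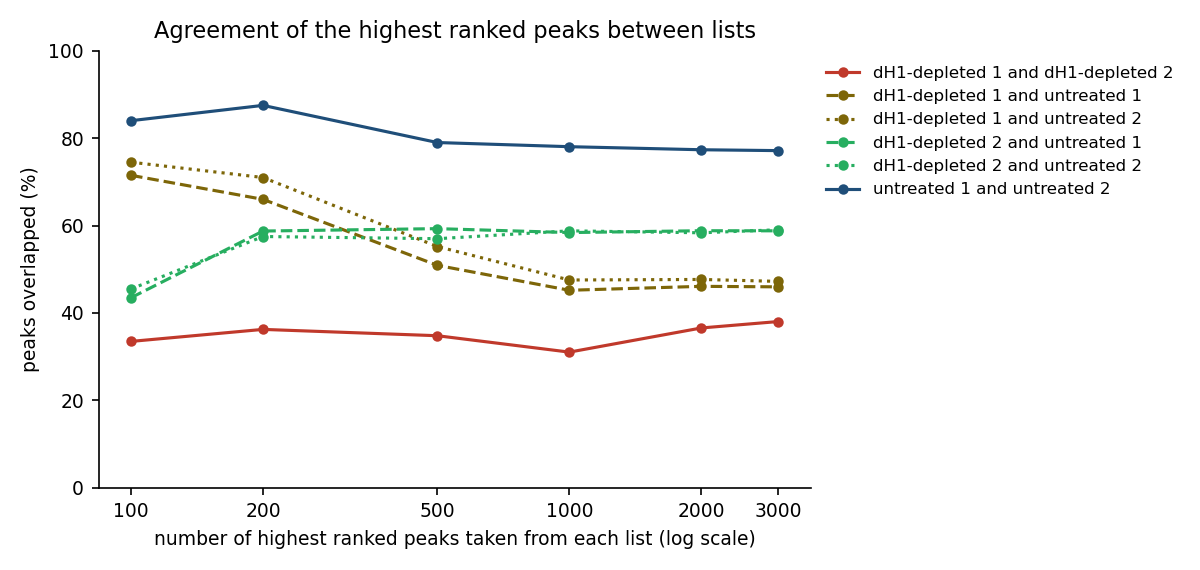
Share of the highest ranked peaks of a list overlapped by as many highest ranked peaks of another (%, mean of both directions, vertical axis) against the number of peaks taken (log scale, horizontal axis) for the 6 pairs of lists. The dH1-depleted pair is lowest at each number, from 31.1% to 38.0%, and the untreated pair is highest, from 77.2% to 87.5%.

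The highest ranked peaks also differed in where they lay. Of the 100 highest peaks, 89.0% in dH1-depleted replicate 1 and 42.0% in replicate 2 were on Uextra, against 73.0% and 79.0% in untreated cells. None of the 100 highest peaks of dH1-depleted replicate 1 was on an arm, but 48.0% of those of replicate 2 were, against 14.0% and 12.0% in untreated cells. Among these 100 peaks the untreated lists lay between the replicates of dH1-depleted cells. On the arms this also held for the 200 and 500 highest, and on Uextra up to the 2000 highest, but not beyond. Of the 1000 highest peaks, 15.9% and 46.6% were on the arms in dH1-depleted cells and 47.3% and 45.1% in untreated cells. Of the 2000 highest, 26.8% and 50.4% were on the arms in dH1-depleted cells and 56.0% and 53.7% in untreated cells, so that both untreated lists were above. Ranks were also related between lists over the regions called in all 4. Over the 726 such regions on Uextra, ranks in dH1-depleted replicate 1 were related to those in the untreated lists with a rho of 0.72 and 0.75, but to those in dH1-depleted replicate 2 with a rho of 0.28. On the 703 arm regions it was dH1-depleted replicate 2 that resembled the untreated lists (rho of 0.60 and 0.59), while replicate 1 gave 0.25 and 0.28 with the untreated lists and 0.35 with its own replicate. The untreated replicates were related with a rho of 0.88 on Uextra and 0.81 on the arms.

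Runs of neighbouring peaks were then described at the positions of the longest run of each list. Since a list chose its own position, its excess of peaks there is part of the choice. The longest run of peaks with gaps of 5 kb or less lay at the end of Uextra in 3 lists. Uextra collects unplaced scaffolds, so this run need not be a single stretch of the genome. From 28795708 to 29004140 (dm3), dH1-depleted replicate 1 had 232 peaks and dH1-depleted replicate 2 had 57, against 83 and 84 in untreated cells. They covered 23.0% and 26.9% of the 208433 bp in dH1-depleted cells and 38.0% and 39.5% in untreated cells. This stretch held 19.2% and 5.00% of the 500 highest ranked peaks of dH1-depleted replicates 1 and 2, against 8.80% and 10.0% in untreated cells. In the RNH-treated lists it still held 16 and 33 peaks in dH1-depleted cells and 69 and 74 in untreated cells. In dH1-depleted replicate 2 the longest run lay instead on 2L, from 21447060 to 21546794, with 21 peaks that covered 83.3% of 99735 bp. Here dH1-depleted replicate 1 had 34 narrow peaks (13.5% covered), and untreated replicates 1 and 2 had 19 and 20 peaks (72.0% and 73.6% covered). The median percentile of the peaks in this stretch was 69.2 and 99.2 in dH1-depleted replicates 1 and 2, against 89.2 and 86.0 in untreated cells. The RNH-treated lists still had 2 and 5 peaks there in dH1-depleted cells and 12 and 10 in untreated cells. The histone gene cluster, which encodes dH1 and the core histones in tandem copies, also lies in the centromere-proximal part of 2L. Whether it overlaps this stretch was not determined, since no annotation of dm3 was used here.

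Shared regions without any peak in the other condition were considered next. Of all 12155 merged regions, 516 were called in both dH1-depleted lists and in no untreated list (4.25%), and 293 in both untreated lists and in no dH1-depleted list (2.41%). The first made 21.3% of the 2417 dH1-depleted regions and the second 9.76% of the 3002 untreated ones, but the untreated lists are shorter, and the part of this in the difference was not tested. The share was uneven between sequences. On the Het sequences, 56 of 128 dH1-depleted regions (43.8%, 95% Wilson interval 35.5–52.4%) had no untreated peak, with 44.7% on 2RHet, 48.0% on 3LHet and 42.4% on 3RHet. On U it was 25.6% of 160 regions, on the arms 23.8% of 1157 and on Uextra 14.8% of 972. In the other direction, 15.5% of 1811 untreated regions on the arms had no dH1-depleted peak, but only 6 of 91 on the Het sequences, 1 of 116 on U and 6 of 984 on Uextra. Regions without a peak in the other condition were weaker ones. Their median percentile was 46.7 and 39.1 in dH1-depleted replicates 1 and 2, in front of 80.0 and 76.7 for dH1-depleted regions with a peak in both untreated lists. In untreated cells it was 32.6 and 32.4, in front of 75.2 and 73.4 for regions with a peak in both dH1-depleted lists.

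Peaks lay closer together in dH1-depleted cells, most of all on the Het sequences and U. The median gap to the nearest peak of the same list was 2172 bp and 4282 bp on the Het sequences in dH1-depleted replicates 1 and 2, against 11335 bp and 19581.5 bp in untreated cells. On U it was 1398 bp and 5307 bp in dH1-depleted cells and 14552 bp and 14761 bp in untreated cells. Since U and Uextra collect unplaced scaffolds, a gap there can cross from a scaffold to another and need not be a genomic distance. Differences in log2 median gap were -2.29 on the Het sequences and -2.43 on U, above the spread between replicates (0.63 and 0.96). On the arms the gap was 3822 bp and 4787 bp in dH1-depleted cells and 6354 bp and 6423 bp in untreated cells, a difference of -0.58 in front of a spread of 0.16. Conditions did not overlap in these comparisons, and each 2-sided exact permutation test reached the lowest *p* it can give, 0.33.

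Gaps also depend on how many peaks a list has. With the 3807 highest peaks of each list, the gap on the Het sequences was 2359 bp and 5921 bp in dH1-depleted cells and 11649 bp and 19581.5 bp in untreated cells. On U it was 3208 bp and 9489 bp in dH1-depleted cells and 15090 bp and 14761 bp in untreated cells. These differences, of -2.01 and -1.44, kept their direction without overlap of the conditions. On the arms the difference changed sign, with 7081 bp and 7823 bp in dH1-depleted cells and 6810 bp and 6423 bp in untreated cells (0.17 on the log2 scale), and on Uextra the conditions overlapped, with 3227 bp and 8424 bp in dH1-depleted cells and 7711 bp and 7304.5 bp in untreated cells. On the Het sequences 67.2% and 53.6% of the peaks of dH1-depleted replicates 1 and 2 had a neighbour within 5 kb, against 31.2% and 18.6% in untreated cells. The Het sequences held 549 and 461 peaks in dH1-depleted cells and 141 and 118 in untreated cells, and with equal numbers of peaks 208 and 315 in dH1-depleted cells, against 134 in untreated replicate 1. More peaks on a sequence give shorter gaps, so spacing and number of peaks cannot be told apart there. Runs of at least 5 peaks numbered 207 and 66 in dH1-depleted cells (replicates 1 and 2), against 39 and 47 in untreated cells. They held 18.9% and 8.03% of the peaks in dH1-depleted cells and 9.66% and 10.8% in untreated cells, so by share of peaks the conditions overlapped.

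**Figure D4:**
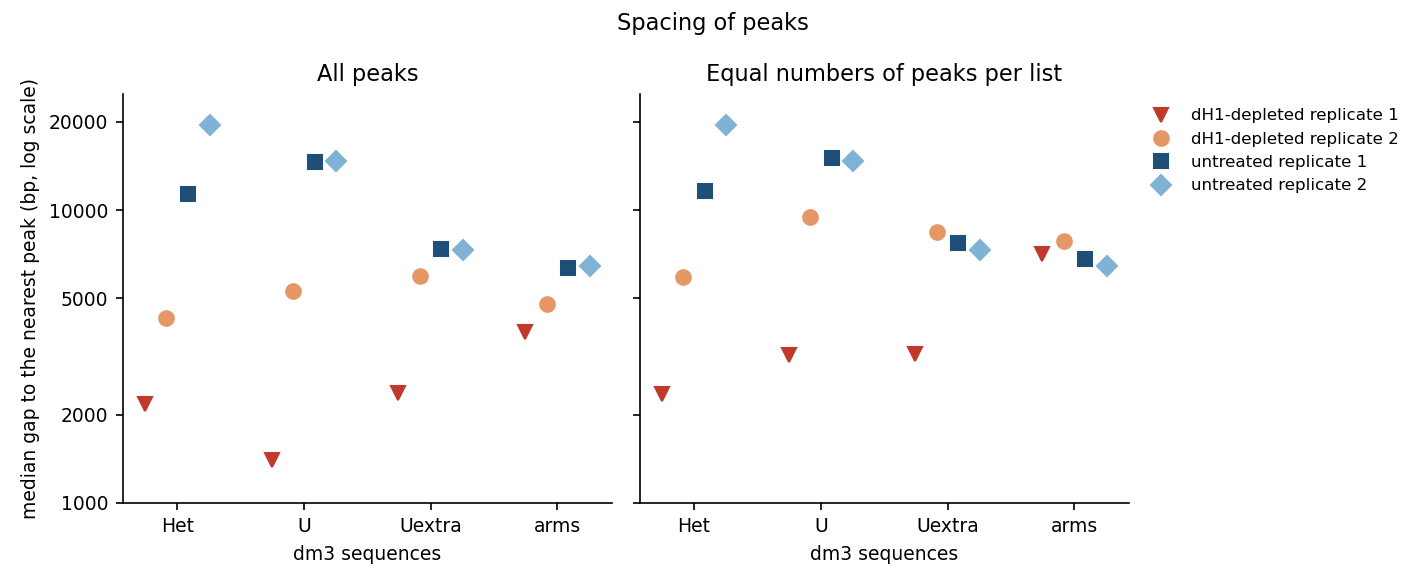
Median gap to the nearest peak of the same list (bp, log scale, vertical axis) by class of dm3 sequences (horizontal axis), with all peaks (left) and with 3807 peaks of highest score per list (right); a point is a library. On Het sequences and U both dH1-depleted libraries lie below both untreated libraries in both panels, while on the arms the order changes with equal numbers of peaks.

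Widths were compared at the same position in the 3 lists of wide peaks. Over 2336 regions called in dH1-depleted replicate 2 and in both untreated lists, the log2 ratio of the width in dH1-depleted replicate 2 to the untreated mean had a median of 0.045, while untreated replicate 1 over replicate 2 gave 0.012. The dH1-depleted peak was wider than both untreated ones in 1202 regions (51.5%) and narrower than both in 576 (24.7%). On the arms 45.1% of 1340 regions were wider. On the Het sequences it was 64.9% of 74 regions, with a median of 1709.5 bp in dH1-depleted replicate 2 and of 1315 bp and 1403.5 bp in untreated cells. On U it was 68.3% of 104 and on Uextra 58.4% of 818 regions. Only 1 dH1-depleted library gives wide peaks, so no test was possible, and width also grows with depth. Replicate-shared regions wider than 5000 bp lay mostly on the arms, with 96 of 117 in dH1-depleted cells and 65 of 80 in untreated cells. The 3 widest of dH1-depleted cells included regions on 3RHet from 168058 to 178179, given above, and on U from 976230 to 986034. On U the region held 6 narrow peaks of dH1-depleted replicate 1 and a peak of 9805 bp in replicate 2, against no peak in untreated replicate 1 and 6378 bp in untreated replicate 2. The third lay on 3R from 26899625 to 26908867, where dH1-depleted replicate 2 had a peak of 9243 bp and untreated cells had peaks of 8039 bp and 8246 bp. This 3R region also held a peak of 8178 to 8229 bp in each RNH-treated list, while those on 3RHet and U held none. The widest region of untreated cells, on 3L from 2046726 to 2061740, was a peak of 15015 bp and 14921 bp in its replicates. It held 3 narrow peaks of 650 bp in all in dH1-depleted replicate 1, and 2 peaks that covered 96.5% of it in dH1-depleted replicate 2.

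Ranks of regions called in all 4 lists were compared last. These 1562 regions were ranked again among themselves in each list. No region passed an adjusted *p* of 0.05 in limma (0 higher and 0 lower in dH1-depleted cells, 0.0% each, Benjamini-Hochberg), the smallest adjusted *p* was 0.712, and 91 regions (5.83%) had an unadjusted *p* under 0.05. This number depended on the libraries used, with 352 regions (22.5%) without dH1-depleted replicate 1, 371 (23.8%) without dH1-depleted replicate 2, and 26 and 23 without untreated replicates 1 and 2. In simulated data with the spread of these libraries the test called none of the regions moved by 1 or 2 units of normal score. The absence of calls thus carries no information on shifts of this size. With the spread of the untreated libraries in both conditions, it called 19.0% and 91.0% of them, with 14 false calls. Both dH1-depleted ranks were above both untreated ranks in 287 regions (18.4% over all sequences). They were below in 270 (17.3%). If the libraries were interchangeable, ranks would separate in either direction in a share of 0.33 of regions. Counts of separated regions alone thus do not show a shift. On the Het sequences 15 of 43 regions were above (34.9%) and 3 below. On U 25 of 90 (27.8%) were above and 10 below. On Uextra 123 of 726 (16.9%) were above and 76 below, while on the arms 124 of 703 (17.6%) were above and 181 (25.7%) below. Shares of higher ranks on the Het sequences and U, and of lower ranks on the arms, were thus above those over all sequences. On the arms this rested on the list of narrow peaks, where 55.6% of the regions ranked below both untreated lists and 28.0% above. In dH1-depleted replicate 2, 35.6% of the arm regions ranked below and 42.4% above. Without Uextra 21.9% of 836 regions were above and 23.3% below.

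Per library, the Het regions had a median percentile of 48.2 and 73.1 in dH1-depleted replicates 1 and 2, against 41.3 and 27.6 in untreated cells. The difference was 26.2 percentile points with an SD between replicates of 14.2 (2-sided exact permutation test, *p* = 0.33). It was 13.8 without dH1-depleted replicate 2 and 38.6 without dH1-depleted replicate 1. This class was taken apart after its values were seen. On U the medians were 62.2 and 51.9 in dH1-depleted cells and 49.4 and 46.7 in untreated cells, a difference of 8.96 with an SD of 5.33 (2-sided exact permutation test, *p* = 0.33). On Uextra and on the arms the conditions overlapped, with 69.3 and 53.2 in dH1-depleted cells against 56.0 and 60.2 in untreated cells on Uextra, and 29.7 and 43.8 in dH1-depleted cells against 44.5 and 41.3 in untreated cells on the arms. For all heterochromatic regions, the median percentile minus that of the arm regions was 37.9 and 9.86 in dH1-depleted cells and 10.1 and 16.6 in untreated cells. This difference of 10.5 rested on dH1-depleted replicate 1, without which it was -3.52. It also depended on the sequences used, and was 19.6 without Uextra (2-sided exact permutation test, *p* = 0.33). In dH1-depleted replicate 2 alone, ranks were above both untreated ones in 38.9% of all regions and below both in 43.2%. Of the Het regions 65.1% were above and 20.9% below, and on U 42.2% were above and 41.1% below. On Uextra 33.5% were above and 52.2% below, so that for all heterochromatic regions 36.0% were above and 49.5% below.

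**Figure D5:**
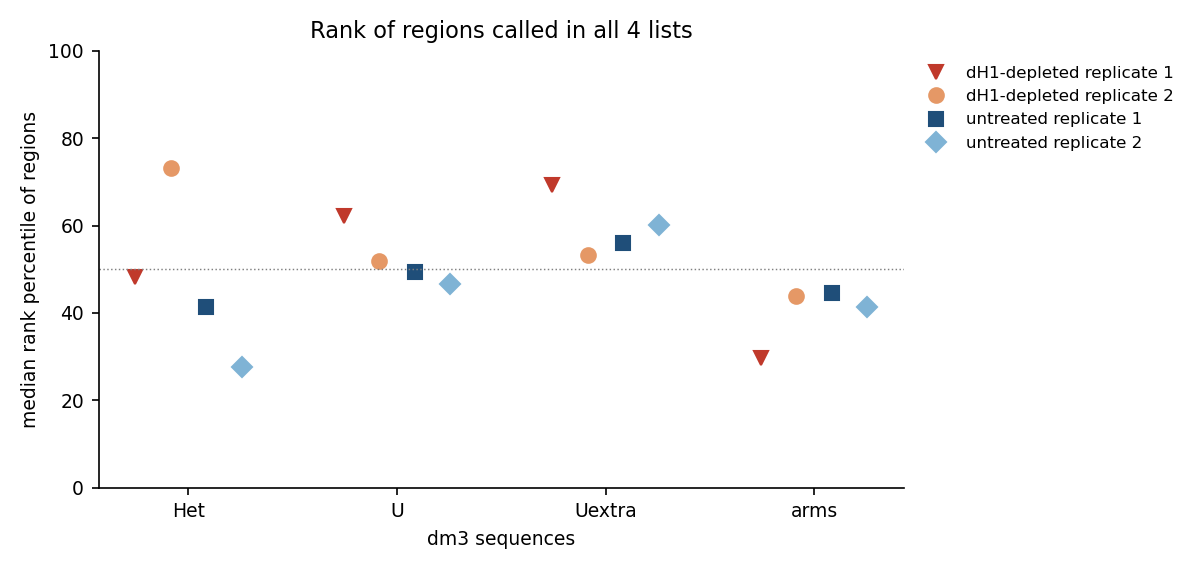
Median rank percentile (vertical axis) of the 1562 regions called in all 4 lists, ranked among themselves, by class of dm3 sequences (horizontal axis); a point is a library and the dotted line is at 50. On Het sequences and U both dH1-depleted libraries lie above both untreated libraries, while on Uextra and the arms the conditions overlap.

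Among the regions ranked higher in both dH1-depleted libraries, the largest mean shift outside 2R belonged to X from 15070961 to 15073680, at percentiles 5.92 and 51.7 in dH1-depleted cells and 0.22 and 0.032 in untreated cells. Its scores in untreated cells, 50.5 and 50.2, lay near 50, the lowest that was called. In dH1-depleted replicate 1 the score was 56.3, also low, and in replicate 2 it was 197. The next, on 3LHet from 1664794 to 1672428, was at percentiles 76.0 and 79.7 in dH1-depleted cells and 5.22 and 7.65 in untreated cells. Its peak in dH1-depleted replicate 2 spanned 7611 bp, against 7556 bp and 7597 bp in untreated cells, and replicate 1 had 4 narrow peaks there. A region on 2L from 7976362 to 7984456 was similar, at percentiles 80.9 and 67.6 in dH1-depleted cells and 12.2 and 2.59 in untreated cells, with 8028 bp in dH1-depleted replicate 2 and 8055 bp and 8073 bp in untreated cells. In these 2 regions the wide peaks had nearly the same extent in both conditions. The other 2 regions named by this rule lay on Uextra from 24961291 to 24962311 (68.5 and 46.1 in dH1-depleted cells, 0.032 and 22.1 in untreated cells) and on U from 8909905 to 8911369 (73.0 and 34.4 in dH1-depleted cells, 6.24 and 0.80 in untreated cells). On Uextra the score in untreated replicate 1 was 50.03, also near the lowest called. In the RNH-treated lists the U region held a peak in each, and the Uextra region in both of untreated cells. The X region held one in dH1-depleted replicate 2 only, while the 3LHet and 2L regions held none. The 5 regions of largest shift to lower ranks all lay on the arms. On 3L from 2081597 to 2086030 the shift rested on the narrow peak of dH1-depleted replicate 1 (percentile 0.13), since dH1-depleted replicate 2 was at 98.2 and untreated cells at 98.9 and 98.4. On 3R from 4962886 to 4965239 the percentiles were 0.99 and 22.7 in dH1-depleted cells and 67.9 and 67.1 in untreated cells. On X from 3053710 to 3055098 they were 3.36 and 15.4 in dH1-depleted cells and 62.3 and 73.8 in untreated cells. The remaining positions, on 3L from 2864457 to 2868376 and on 2L from 21827563 to 21829467, were at percentiles 4.90 and 12.5, and 0.35 and 9.09, in dH1-depleted cells, against 61.0 and 72.8, and 44.7 and 41.7, in untreated cells. Both dH1-depleted libraries ranked below both untreated ones at these 5 positions by the rule that chose them. The scores of dH1-depleted replicate 1 there, 50.1 to 54.9, lay near the lowest that was called. No peak was called at these positions in the RNH-treated lists.

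A last readout was not used to choose the regions, namely whether a peak was called after RNH treatment, which degrades the RNA of hybrids. Of the dH1-depleted shared regions, 9.27% and 10.4% overlapped a peak of the RNH-treated list of replicates 1 and 2, against 19.95% and 18.2% of the untreated shared regions. The difference was largest on Uextra and U and was not tested. On Uextra 15.6% and 18.1% of the regions overlapped in dH1-depleted cells and 50.9% and 47.4% in untreated cells, and on U 13.8% and 8.12% in dH1-depleted cells and 30.2% and 24.1% in untreated cells. On the Het sequences the shares were 7.03% and 6.25% in dH1-depleted cells and 10.99% and 9.89% in untreated cells. On the arms they were 3.54% and 4.75% in dH1-depleted cells and 2.93% and 2.37% in untreated cells. After RNH treatment, the dH1-depleted lists were also shorter, with 442 and 839 peaks against 1001 and 903 in untreated cells, and how much of the difference follows from this was not tested.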

How the data were processed

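The labels gave the condition of each library, and each deposited list was matched to its library by the label it carries. Labels of untreated libraries hold no replicate number, so it was taken from a tag that libraries of both conditions share. What this tag stands for is not stated. The authors aligned reads to dm3 with Bowtie 0.12.5, where reads with several alignment sites were kept at all of them, removed duplicates and called peaks with MACS 1.4, library by library, with the input of the same replicate as control. The authors deposited the position of each peak and its score, which is 10 times the negative log10 *p*-value. The lowest score, 50, corresponds to a *p*-value of 1e-05. Scores were not normalized between libraries and were used as ranks. Positions are given on dm3. The members, definitions and alternatives were chosen with earlier results of these data known.

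Peaks overlapped when they shared at least 1 bp. Values per library, except the share of peaks called in the other replicate, were compared by exact permutation tests (2-sided), on log2 values or log2 odds of shares. The lowest possible *p* is then 0.33. Regions called in all 4 lists were compared on normal scores of their rank with limma 3.58.1 (R 4.3.3), dH1-depleted minus untreated, with Benjamini-Hochberg adjustment. Shares have Wilson 95% intervals, which cover counting error only. Named positions were the 5 regions of largest mean rank shift in each direction without overlap of the conditions, the 3 widest replicate-shared regions of each condition, the wide peak with most narrow peaks and the longest run of each list. Regions on 2R were counted but not named. Alternatives were a score of 100 and above, equal numbers of peaks, no Uextra, 50% overlap, and neighbours within 2 kb or 10 kb. In another, each narrow peak was widened by about 1005 bp, which brought their median near that of dH1-depleted replicate 2. Further ones were percentiles in the whole list or on a linear scale, leaving out each library, and a block for the replicate number. The split of spacing by class, the Het sequences apart in ranks, dH1-depleted replicate 2 alone and the comparison of all lists within the longest runs were added after seeing the data. Calculations used Python 3.11.15, NumPy 2.4.6, SciPy 1.17.1, pandas 2.3.3 and matplotlib 3.10.9, and were tested on simulated data. No genome or annotation of dm3 was used, so no sequence was printed and no gene was assigned to a position. Inputs, γH2Av data and DRIP-qPCR were not analysed here.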

Additional observations from a re-analysis of the deposited data

How the results depend on the processing

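The difference in replicate sharing kept its direction in the 5 alternatives tried, and so did the spacing on Het sequences and U in the 7 tried for each. The difference in median width changed sign without dH1-depleted replicate 1, and ranged from -2.36 to 0.071 when each library was left out. The difference in rank between heterochromatic and arm regions ranged from -3.52 to 24.6, and also changed sign without dH1-depleted replicate 1. Without Uextra this difference in rank was 19.6. The share of arm peaks with a neighbour within 5 kb differed by 0.51 (log2 odds) with all peaks and by -0.033 with equal numbers of peaks. With peaks of score 100 and above there were 1023 replicate-shared regions in dH1-depleted cells (67.4% heterochromatic) and 1414 in untreated cells (50.1%). Equal numbers of peaks gave 1268 dH1-depleted regions (64.4%). Without Uextra there were 1445 dH1-depleted regions (19.9%), and 10.3% of the untreated regions were heterochromatic. Also without Uextra, the 1000 highest peaks agreed in 43.6% between conditions (mean over the pairs), in front of 52.5% with it. They agreed in 72.4% between untreated replicates and in 33.2% between dH1-depleted replicates. Single pairs between conditions were not taken apart without Uextra. Both dH1-depleted ranks were above both untreated ranks in 22.9% and below in 11.2% of regions when percentiles of the whole list were taken, in 21.9% and 23.3% without Uextra, and in 14.5% each with a score of 100 and above. Limma called 0 regions in each of its alternatives. This says nothing of stability, since it called none of the moved regions in simulated data with the spread of these libraries. The alternatives themselves were not simulated. With the replicate number as a block, the smallest adjusted *p* was 0.122. The numbers follow a tag that labels of both conditions share, but are not known to pair the libraries, whose deviations were correlated at -0.0989. The lists give no depth, and a longer list calls weaker regions more easily, so counts of regions called in a single condition are limited by it. All values that join the dH1-depleted replicates combine narrow with wide peaks.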
